A study of Mus musculus with 12 samples.

Results

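The genes described here are the protein-coding translation initiation factor genes of the mouse, taken as every gene whose symbol begins with Eif and a digit and that reached a total of at least 120 counts over the 12 libraries. Of 70 matching symbols, 66 were protein coding, 3 of those (Eif2ak3, Eif2s3x and Eif2s3y) were left out by name and 11 were under the minimum, which left 52 members among 43322 genes. Just inside the minimum lay Eif4a3l1 with a total of 674 counts and Eif4ebp3 with 2487 counts, and just outside it lay Eif1ad4 with 93.4 and Eif1ad3 with 93.3 counts. All 52 members also passed the filter on low counts that preceded the tests.

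Poly-A RNA was sequenced from primary cortical glial cultures of wild-type CD1 mice of postnatal days 3 to 5, which the labels call cultured astrocytes. There were 3 groups of 4 libraries: 3 µM thapsigargin for 60 min, a blocker of the SERCA pumps that load the endoplasmic reticulum (ER) with calcium; 60 min in medium without calcium to which the chelator EGTA was added, called calcium-free medium here; and vehicle control. All groups were grown with epidermal growth factor, and each culture was prepared from the cortices of 1 mouse, per the labels' protocols. The design text calls the 4 samples of a group biological replicates, but does not tie the replicate numbers to animals.

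Translation initiation begins when eIF2, loaded with GTP and the initiator tRNA, joins the small ribosomal subunit together with eIF1, eIF1A, eIF3 and eIF5. The eIF4F complex, made of the cap-binding protein eIF4E, the scaffold eIF4G and the helicase eIF4A, recruits this particle to the capped 5′ end of an mRNA, and it then scans for a start codon. Loss of calcium from the ER activates the kinase PERK, which phosphorylates the alpha subunit of eIF2 and so blocks its nucleotide exchange factor eIF2B. The 4E-BP proteins hold eIF4E away from eIF4G when mTOR is inactive. These controls act on proteins, and the measurements here are of the mRNAs that encode them.

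The largest differences fell on a few members. Eif5, which encodes the GTPase-activating protein of eIF2, was higher with thapsigargin and lower in calcium-free medium than in control. Eif4g2, a relative of eIF4G that lacks the eIF4E-binding part, was higher in both treatments, and Eif4ebp2, which encodes 4E-BP2, was lower with thapsigargin. Beyond these, the thapsigargin libraries held slightly lower levels of many members after scaling, among them eIF3 subunits, with changes well under 2-fold. The members' median log2 fold change was -0.064, beside -0.047 over all genes. Their mean share of the unscaled counts was higher with thapsigargin than in control. Eif4g2, the member with the most counts, had a mean of 1540 CPM with thapsigargin and 1139 CPM in control. The share of the members without Eif4g2 was not computed, so the higher share is not shown for the members at large.

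Library totals ran from 36.2 to 42.6 M counts, and the members together took 0.806% to 0.932% of them. By group, this unscaled share was 0.852% to 0.932% with thapsigargin, 0.840% to 0.924% in calcium-free medium and 0.806% to 0.890% in control. The ranges overlapped, and each thapsigargin library had a higher share than the control library of its number. Levels are given as CPM, counts scaled to the TMM-normalised library size, and hold between libraries for 1 gene. The TMM factors were 1.03 to 1.04 with thapsigargin, 0.963 to 0.997 in calcium-free medium and 0.979 to 0.993 in control. Scaling thus lowered the thapsigargin values relative to those of the other groups. Fold changes are log2 values with standard errors (SE), and adjusted p-values are from the edgeR quasi-likelihood test with Benjamini-Hochberg adjustment over all 17077 genes tested; a gene was called at an adjusted p under 0.05. Astrocyte markers were abundant in every library, with a summed level of 7464 to 8583 CPM with thapsigargin, 8664 to 9578 CPM in calcium-free medium and 8382 to 9505 CPM in control over 12 genes. Microglial markers summed to 85.9 to 130.2, 102 to 150.0 and 107 to 176 CPM over 12 genes, with the groups in that order, and the oligodendrocyte lineage markers to 1641 to 1990.0, 1792 to 2091 and 1786 to 1909.6 CPM over 9 genes. Neuronal markers summed to 352 to 391, 418 to 456 and 398 to 429.8 CPM, vascular and fibroblast markers to 2125 to 2902, 2760.05 to 3597 and 2486 to 3435 CPM, and proliferation markers to 1643 to 2085, 1670.0 to 2242 and 1702 to 2310.1 CPM. The median over the genes of a list was 14.4 to 24.5 CPM for the oligodendrocyte lineage over all libraries. It was 5.54 to 15.8 CPM for neurons and 5.68 to 9.29 CPM for vascular cells and fibroblasts, so these sums rest on a few genes. Mog, a gene of mature oligodendrocytes, and Cldn5, a gene of endothelial cells, were under 0.1 CPM in every library. With thapsigargin against control, 1 of 12 astrocyte markers was called higher and 3 lower, 0 and 3 of 12 microglial, 1 and 1 of 7 tested oligodendrocyte lineage, 1 and 1 of 7 tested neuronal, 0 and 1 of 8 tested vascular and fibroblast, and 0 and 1 of 8 proliferation markers. In calcium-free medium against control, 1 oligodendrocyte lineage marker was called higher and 0 markers of the other lists were called by edgeR, with 1 astrocyte marker and 1 vascular or fibroblast marker at an unadjusted p under 0.05. Over all genes tested, 16.4% were called higher and 14.8% lower with thapsigargin, and 3.78% and 1.55% in calcium-free medium. The part of cell composition in the results was not tested, and in these bulk samples fewer cells of a type and less RNA per cell cannot be told apart.

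Replicate 4 stood apart from replicates 1 to 3 in each group. Its 3 libraries had 588 to 739.8 CPM of Xist, an RNA made from the inactive X, against at most 0.319 CPM in replicates 1 to 3. Eif2s3y, the Y-linked copy of the gene for the gamma subunit of eIF2 and not among the members, was at 0.0715 CPM or below in replicate 4 and at 70.5 to 90.8 CPM elsewhere, while its X-linked partner Eif2s3x was at 213 to 239 and 119 to 140.3 CPM. The members also differed between replicate 4 and the others. Their median log2 difference between replicate 4 and the mean of replicates 1 to 3 was 0.118 with thapsigargin, 0.125 in calcium-free medium and 0.109 in control. Replicate 4 was the highest library for 44, 38 and 39 of the 52 members in these groups. These values were not computed over all genes, so the shift is not shown to be particular to the members. Over all genes tested, the number 4 libraries deviated together from their group means, with correlations of 0.814 to 0.836. Counts of calls are given as fitted on all 12 libraries, under a block for replicate number, and without replicate 4 of every group.

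**Figure D1:**
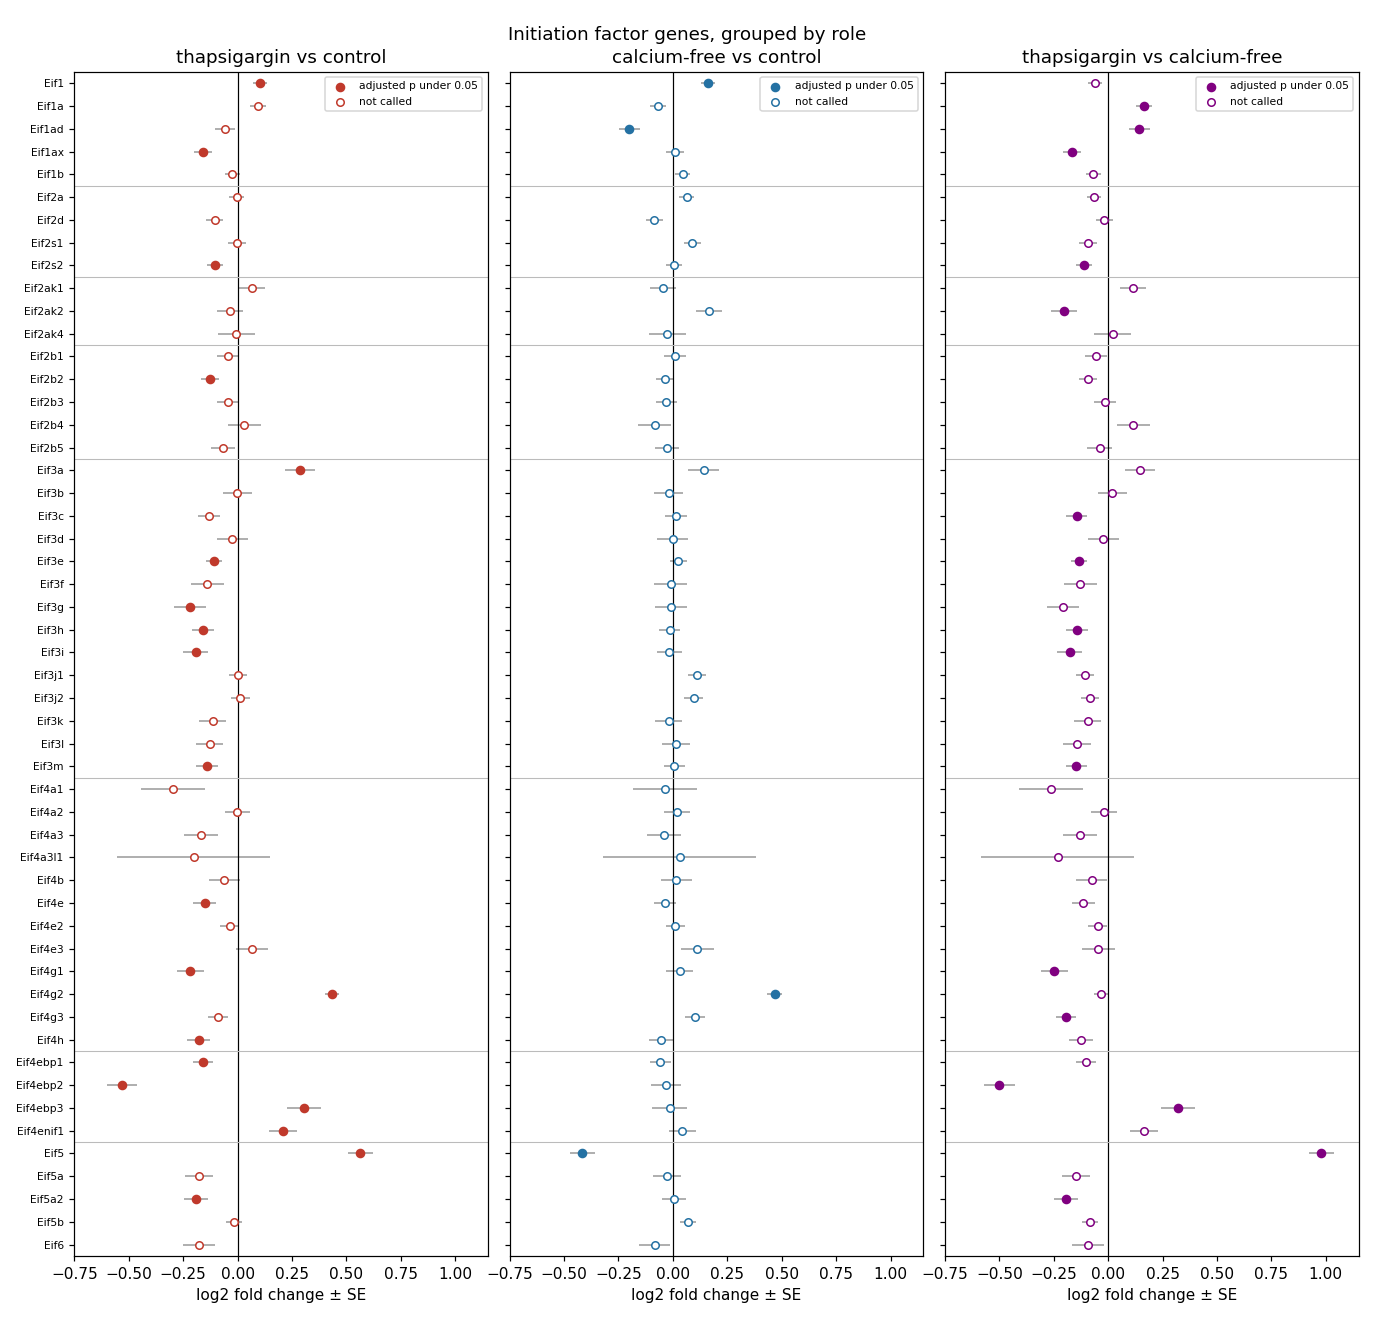
Log2 fold change of each of the 52 members (x axis, with SE as bars) for thapsigargin against control, calcium-free medium against control, and thapsigargin against calcium-free medium; rows are genes, lines divide the roles, and filled points are called at an adjusted p under 0.05. Eif5 lies at 0.56, -0.42 and 0.98 in the 3 panels, and Eif4g2 at 0.43 and 0.47 against control.

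Thapsigargin against control gave 6 members called higher and 14 called lower, that is 11.5% and 26.9% of the 52. Among all genes tested, 16.4% were called higher and 14.8% lower. With RLE scaling the split was 7 and 9, beside 3007 and 2204 of all 17077 genes. With upper quartile scaling it was 5 and 21, beside 2609 and 3241. The median log2 fold change of the members was -0.064, beside -0.047 over all genes, and the median of its absolute size was 0.112 for the members and 0.175 for all genes. No member changed 2-fold, as the values ran from -0.53 to 0.56, and 40 of the 52 were negative. The share of negative values over all genes was not computed, and their median was negative as well. With the replicate block, 7 members were higher and 24 lower, beside 23.0% and 28.2% of all genes, and all 20 calls were among them. The 11 members called only with the block were Eif1a, higher, and Eif2d, Eif3c, Eif3f, Eif3k, Eif3l, Eif4a1, Eif4a3, Eif4g3, Eif5a and Eif6, lower. Without replicate 4, 8 were higher and 18 lower, beside 24.4% and 21.2% of all genes, and 17 of the 20 calls were kept. The calls of Eif3e, Eif2b2 and Eif2s2 were the ones lost. The count of lower members also turned on single libraries: it was 6, 5, 2 and 22 without thapsigargin replicates 1 to 4 in that order, 7, 7 and 4 without control replicates 1, 2 and 4, and 9 without calcium-free replicate 2. Over all genes those fits gave, in the same order, 2142 of 17238, 1927 of 17213, 1924 of 17238 and 2671 of 17198 lower. Then came 2024 of 17242, 1964 of 17243 and 2719 of 17195, and 2307 of 17266. Without thapsigargin replicate 1, 2 or 3 or control replicate 4, the share lower was smaller among the members than over all genes. Each of the 12 fits that left out 1 library kept 6 of the calls, those of Eif4g2, Eif5, Eif3a, Eif4ebp3, Eif4ebp2 and Eif1ax.

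In calcium-free medium 2 members were called higher than in control (Eif4g2 and Eif1) and 2 lower (Eif5 and Eif1ad), 3.85% of the members in each direction. The shares over all genes were 3.78% higher and 1.55% lower. The members' median was 0.002, beside -0.0076 over all genes, with 26 members above and 26 below 0, and it changed sign with the setting: it was negative in 9 of 26 alternatives, with a range of -0.047 (without calcium-free replicate 4) to 0.037 (without control replicate 4). With the block, 6 members were higher and 2 lower, beside 10.4% and 7.01% of all genes. Without replicate 4, 8 were higher and 3 lower, beside 10.5% and 5.16% of all genes. All 4 calls were kept in both of those fits, and the 4 members called only with the block were Eif2ak2, Eif2s1, Eif3a and Eif4g3, all higher.

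Thapsigargin against calcium-free medium, which also tests whether the effects of the treatments differ since they share the control libraries, gave 4 members called higher and 12 lower. Of all genes, 14.6% were higher and 13.2% lower in that comparison. The median was -0.092 for the members and -0.024 for all genes. With the block the counts were 8 and 26, beside 22.4% and 26.9% of all genes, and without replicate 4 they were 8 and 20, beside 21.7% and 19.4% of all genes; the 16 calls were kept in both fits. Leaving out 1 library gave 6 lower members without thapsigargin replicate 1, 2 or 3, 5 without calcium-free replicate 2, and 7 without calcium-free replicate 3 or 4, while the higher members became 7 without calcium-free replicate 4. Over all genes those fits gave, in the same order, 1888 of 17238, 1664 of 17213 and 1673 of 17238 lower. Then came 1623 of 17266, 1647 of 17271 and 2024 of 17233, with 2638 higher in the last. Eif5 was called in all 3 comparisons, Eif1 and Eif4g2 in both treatments against control, and 27 members in no comparison.

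The control cultures show which members carried most mRNA. Per exon length, as TPM, the highest control levels were those of Eif4a1, the main eIF4A helicase, at 789.6 ± 141 TPM, and of Eif5a, an elongation and termination factor despite its name, at 590.1 ± 27.7 TPM (SD, n = 4 for all TPM values). Eif4g2 followed at 376 ± 12.4 TPM, then Eif4h, a cofactor of eIF4A, at 358 ± 22.4, Eif3h at 355 ± 16.4, Eif1 at 349.6 ± 8.33 and Eif4g1 at 349 ± 22.9 TPM. From Eif4g2 to Eif4g1 neighbours lay within their SDs of each other, while Eif4a1 and Eif5a stood above them. At the low end were Eif2d at 7.77 ± 0.157, Eif4a3l1 at 2.33 ± 0.93 and Eif4e3 at 1.90 ± 0.0513 TPM. Subunits of a complex did not share a level. In eIF3, leaving out the j genes, control levels ran from 147 ± 14.1 TPM for Eif3a to 355 ± 16.4 TPM for Eif3h, and in eIF2B from 10.8 ± 0.456 TPM for Eif2b3 to 89.4 ± 3.69 TPM for Eif2b2. The exon length is the sum over all annotated exons, so a gene with long alternative exons, such as Eif2d with 14558 bases, gets a low value for its counts.

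**Figure D2:**
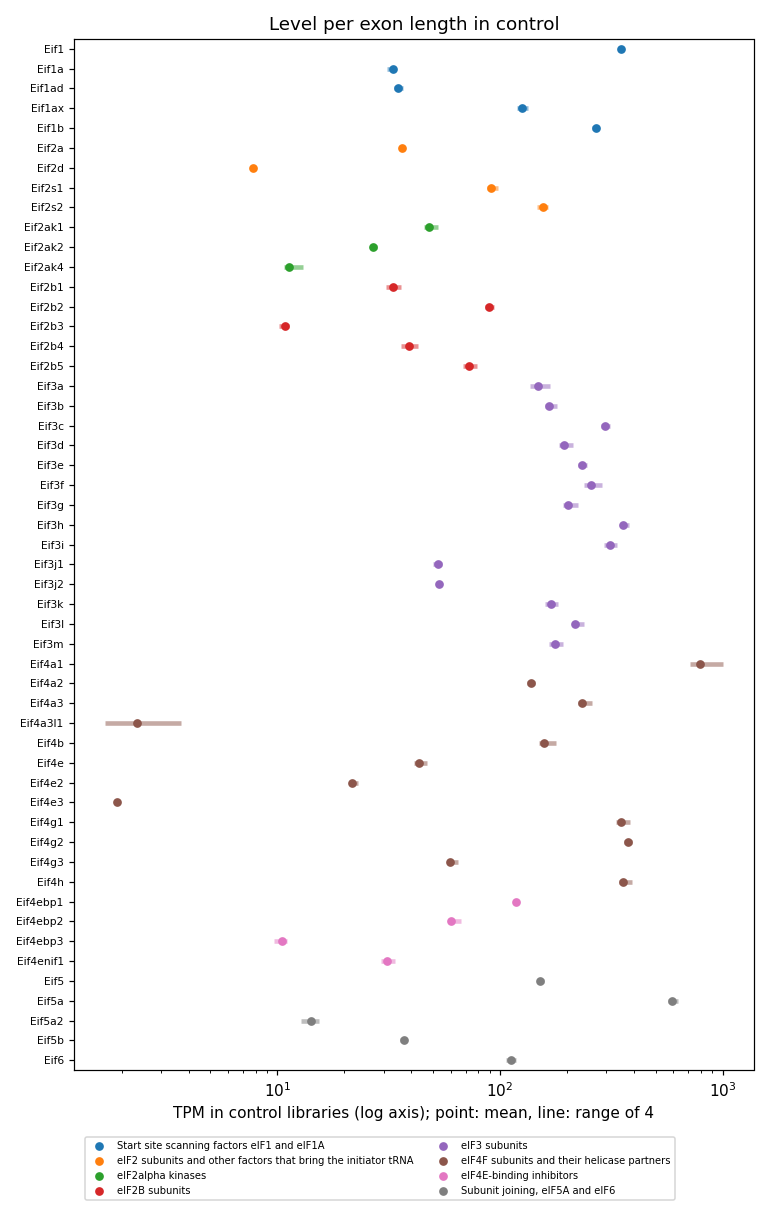
Level of each member in the 4 control libraries as TPM on a log axis, coloured by role; points are means and lines run from the lowest to the highest library. Eif4a1 and Eif5a are the highest and Eif4e3, at 1.90 TPM, the lowest.

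Of the factors that scan for the start codon, eIF1 keeps the ribosome moving until a good start site is found and eIF1A acts beside it. Replicates 1 to 4 of Eif1 (GRCm39 chromosome 11, 100210775 to 100212925) were at 184, 181, 183 and 192 CPM with thapsigargin, 193, 189, 195 and 194 CPM in calcium-free medium and 172, 168, 177 and 173 CPM in control. Both treatments lay wholly above control and overlapped each other, and the gene rose by 0.10 ± 0.032 log2 (SE, adjusted p = 0.0267) with thapsigargin and by 0.16 ± 0.032 log2 (SE, adjusted p = 0.0131) in calcium-free medium. The thapsigargin call was lost without thapsigargin replicate 4, control replicate 1 or control replicate 2, with adjusted p up to 0.0866, and the calcium-free call without control replicate 2, at 0.0513. The paralog Eif1b did not pass the test in any comparison. It had 96.3, 91.4, 92.6 and 99.6 CPM with thapsigargin, 98.5, 99.3, 98.7 and 102 CPM in calcium-free medium and 98.5, 96.0, 92.9 and 98.9 CPM in control. Its groups overlapped, with a difference of -0.024 ± 0.036 log2 (SE, adjusted p = 0.676) between thapsigargin and control, and that value became 0.12 (adjusted p = 0.00972) once the trend with exon length was removed.

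The mouse has an autosomal gene for eIF1A, Eif1a, and an X-linked gene, Eif1ax, and thapsigargin moved them in opposite directions relative to calcium-free medium. Eif1ax (chromosome X, 158155174 to 158172617) had 211, 208, 210.0 and 226 CPM with thapsigargin, 233, 241, 233 and 253 CPM in calcium-free medium and 239, 238, 228 and 249.6 CPM in control. The 4 thapsigargin libraries lay below all others, and the gene fell by 0.16 ± 0.042 log2 against control (SE, adjusted p = 0.0128) and by 0.17 ± 0.042 log2 against calcium-free medium (adjusted p = 0.0112). Eif1a had 44.4, 43.5, 45.7 and 44.2 CPM with thapsigargin, 40.3, 40.6, 38.7 and 39.0 CPM in calcium-free medium and 42.5, 42.8, 39.4 and 41.8 CPM in control. Its thapsigargin libraries lay above all 8 others. The difference from control was 0.094 ± 0.037 log2 (SE, adjusted p = 0.0747), which missed the threshold and reached adjusted p = 0.0354 with the replicate block, and against calcium-free medium the gene rose by 0.16 ± 0.037 log2 (SE, adjusted p = 0.00605). Per length, Eif1a made up 23.8 ± 0.818% of the pair with thapsigargin, 19.9 ± 0.777% in calcium-free medium and 20.8 ± 0.527% in control (SD, n = 4, no test). Eif1ad, which encodes a nuclear protein with an eIF1A-like domain, had 36.4, 36.5, 37.6 and 41.5 CPM with thapsigargin, 35.4, 33.1, 34.7 and 34.5 CPM in calcium-free medium and 40.0, 39.3, 38.1 and 40.9 CPM in control. The calcium-free libraries lay below the other groups, with a fall of 0.20 ± 0.047 log2 against control (SE, adjusted p = 0.0313), and thapsigargin was higher than calcium-free medium by 0.14 ± 0.047 log2 (SE, adjusted p = 0.0418). The call against control was lost without thapsigargin replicate 3, calcium-free replicate 2 or 3, or any 1 control library, with adjusted p up to 0.111, and that against calcium-free medium without thapsigargin replicate 3 or 4, calcium-free replicate 2 or 3, or control replicate 1 or 2, up to 0.123. Eif1ad overlaps the opposite-strand gene Banf1, which was at 131 CPM in control against 39.6 CPM for Eif1ad, and the strand setting of the counting is not given in the sources used here, so its counts are uncertain.

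The genes of eIF2 itself showed small differences. Eif2s1 encodes the alpha subunit that PERK phosphorylates, and its mRNA had 112, 108, 109 and 117 CPM with thapsigargin, 115, 118, 119.9 and 123 CPM in calcium-free medium and 111, 110.3, 108 and 118 CPM in control. The groups overlapped, with a difference of -0.0036 ± 0.040 log2 (SE, adjusted p = 0.959) between thapsigargin and control; calcium-free medium differed from control by 0.089 ± 0.040 log2 (SE, adjusted p = 0.270), which was called with the block (adjusted p = 0.0352). Eif2s2, the beta subunit, fell by 0.10 ± 0.037 log2 with thapsigargin against control (SE, adjusted p = 0.0484), a call kept only in the 2 fits without thapsigargin replicate 4 or control replicate 3 among the 12 that left out 1 library, with adjusted p up to 0.136. Against calcium-free medium its fall of 0.11 ± 0.037 log2 (SE, adjusted p = 0.0419) was kept in 3 of the 12 fits, those without thapsigargin replicate 4 or control replicate 3 or 4, with adjusted p up to 0.119 in the others. Eif2a, an alternative carrier of the initiator tRNA, and Eif2d, a reinitiation and recycling factor, were not called in any comparison; against control they gave -0.0032 ± 0.034 log2 and -0.10 ± 0.039 log2 with thapsigargin (SE), and Eif2d was called with the block (adjusted p = 0.0160).

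The 3 eIF2 kinase genes among the members gave 0 calls against control by edgeR, DESeq2 or limma, with 1 at an unadjusted edgeR p under 0.05, in calcium-free medium. That gene, Eif2ak2, was called there with the replicate block (adjusted p = 0.00408) and without replicate 4 (adjusted p = 0.00178). Over all genes, the fit without the block called 16.4% higher and 14.8% lower with thapsigargin against control, and 3.78% and 1.55% in calcium-free medium. The 3 kinases answer haem shortage and other stresses (Eif2ak1), double-stranded RNA (Eif2ak2) and amino acid shortage (Eif2ak4). Eif2ak2 had 69.9, 71.7, 70.6 and 60.8 CPM with thapsigargin, 76.9, 79.6, 85.2 and 72.1 CPM in calcium-free medium and 69.7, 72.6, 69.5 and 67.7 CPM in control. All thapsigargin libraries lay below the calcium-free ones, and the gene was lower by 0.20 ± 0.060 log2 with thapsigargin than in calcium-free medium (SE, adjusted p = 0.0250); the call was lost without thapsigargin replicate 4 or calcium-free replicate 2 or 3, with adjusted p up to 0.0796. Against control it gave -0.034 ± 0.060 log2 (SE, adjusted p = 0.724) with thapsigargin and 0.17 ± 0.060 log2 (SE, adjusted p = 0.148) in calcium-free medium. The fourth kinase gene, Eif2ak3, which encodes PERK and was left out by the rule, differed from control by -0.016 ± 0.045 log2 with thapsigargin and 0.0022 ± 0.045 log2 in calcium-free medium (SE, adjusted p = 0.835 and 0.997).

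Of the 5 eIF2B genes, Eif2b2 was called lower with thapsigargin than control, at -0.13 ± 0.042 log2 (SE, adjusted p = 0.0358), and the call was lost without thapsigargin replicate 2 or 3 or control replicate 3 or 4, with adjusted p up to 0.114. Eif2b5, which encodes the catalytic epsilon subunit, had 68.7, 71.1, 70.3 and 77.6 CPM with thapsigargin, 70.8, 72.4, 72.2 and 80.5 CPM in calcium-free medium and 72.6, 71.6, 76.4 and 81.0 CPM in control. The groups overlapped, and replicate 4 was the highest library in each. The other eIF2B genes ranged from -0.068 ± 0.055 log2 (Eif2b5) to 0.032 ± 0.077 log2 (Eif2b4) with thapsigargin against control and were not called.

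eIF3, the largest factor, bridges the small subunit and eIF4G, and its 14 genes had a median log2 fold change of -0.12 with thapsigargin against control, with 1 called higher (7.14%) and 5 lower (35.7%), beside a median of -0.047, 16.4% higher and 14.8% lower over all genes. With the replicate block Eif3c, Eif3f, Eif3k and Eif3l were also called lower, at adjusted p from 0.000468 to 0.00995, in a fit that called 28.2% of all genes lower. Against calcium-free medium 0 were higher and 5 lower (35.7%), beside 14.6% and 13.2% of all genes. Calcium-free medium against control gave 0 calls by edgeR, DESeq2 or limma, with 2 at an unadjusted edgeR p under 0.05, where edgeR called 3.78% of all genes higher and 1.55% lower. With the block Eif3a was called higher in calcium-free medium, beside 10.4% of all genes. It was at 0.14 ± 0.069 log2 as fitted without the block (SE, adjusted p = 0.324, and 0.00190 with the block). Eif3a, the largest core subunit (chromosome 19, 60749554 to 60779131), was the 1 eIF3 gene called higher. Its levels were 345, 354, 354 and 402 CPM with thapsigargin, 308, 319.5, 329 and 357 CPM in calcium-free medium and 288, 291, 277 and 335 CPM in control. Every thapsigargin library lay above every control library while the calcium-free libraries overlapped both, and the gene rose by 0.29 ± 0.069 log2 (SE, adjusted p = 0.00713) with thapsigargin. Eif3i had 119, 114, 112 and 127 CPM with thapsigargin, 129, 132, 128 and 146 CPM in calcium-free medium and 130.3, 127, 139.7 and 143 CPM in control. The thapsigargin libraries lay below control, by a margin of less than 0.1 CPM between the nearest libraries, and the fall was 0.19 ± 0.058 log2 (SE, adjusted p = 0.0230) and was 0.18 ± 0.058 log2 against calcium-free medium (adjusted p = 0.0383). Eif3e had 129.6, 124, 129.6 and 136 CPM with thapsigargin, 139, 143, 144 and 144 CPM in calcium-free medium and 139, 140.2, 135 and 146 CPM in control. It was lower with thapsigargin by 0.11 ± 0.037 log2 than in control (SE, adjusted p = 0.0424), where the groups overlapped, and by 0.13 ± 0.037 log2 than in calcium-free medium (adjusted p = 0.0176), where they did not. Against calcium-free medium the call of Eif3e was lost without thapsigargin replicate 2 (0.0578), and that of Eif3i without thapsigargin replicate 1, 2 or 3 or calcium-free replicate 2 or 4, up to 0.115. Eif3c, Eif3h and Eif3m were also lower in that comparison, at -0.15 ± 0.049 log2, -0.14 ± 0.050 log2 and -0.15 ± 0.049 log2 (SE), and were kept in 3, 2 and 4 of the 12 fits. The other calls against control were Eif3g at -0.22 ± 0.073 log2, Eif3h at -0.16 ± 0.050 log2 and Eif3m at -0.14 ± 0.049 log2. The 5 lower calls were kept in 8 (Eif3i), 7 (Eif3h), 5 (Eif3g), 4 (Eif3m) and 3 (Eif3e) of the 12 fits that left out 1 library, and the libraries that ended 1 or more of them were all 4 control libraries, thapsigargin replicates 1 to 3 and calcium-free replicates 2 to 4, with adjusted p up to 0.130. The 5 genes called lower had short summed exons, from 1068 bases (Eif3g) to 1541 bases (Eif3e), and Eif3a had 5176 bases. Eif3k and Eif3f, at 1238 and 1507 bases, were not called without the block. The part of exon length in these calls was not tested. The core subunit genes Eif3b and Eif3d gave -0.0014 ± 0.066 log2 and -0.023 ± 0.070 log2 with thapsigargin against control. Eif3j1 and Eif3j2 differed little in count within each library, at an Eif3j2 to Eif3j1 ratio of 0.981 to 1.04, so they cannot be taken as separate measurements and are uncertain. For 9 of the 25 members that overlap another gene, that gene reached over 10% of the member's control level, and their counts are uncertain as well: Eif1ad, Eif2a, Eif2ak1, Eif2ak2, Eif3j1, Eif4a2, Eif4e3, Eif4enif1 and Eif5b.

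**Figure D3:**
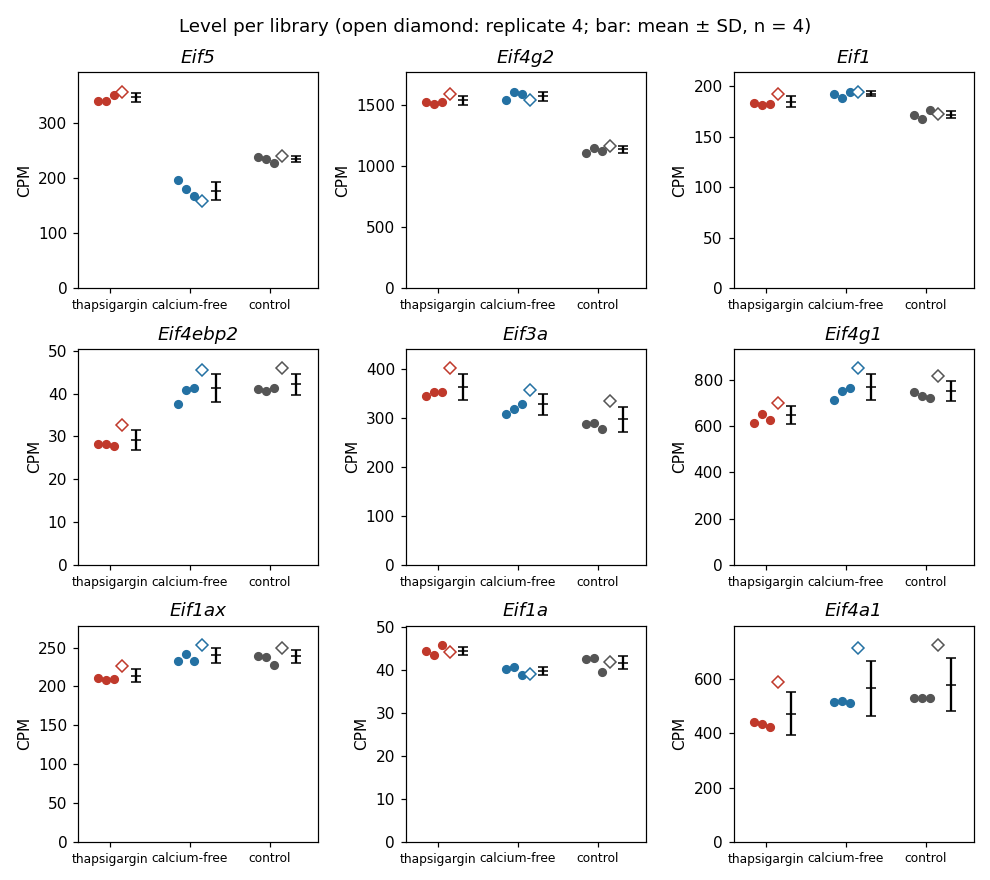
CPM of 9 members in each library of the 3 groups on linear axes from 0; filled circles are replicates 1 to 3, open diamonds replicate 4, and the bars beside them the mean ± SD of 4 libraries. Eif5 separates all 3 groups, Eif4g2 and Eif1 separate both treatments from control, and Eif4a1 has replicate 4 far above the others in every group.

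Within eIF4F and its partners, 1 of 12 genes was called higher and 3 lower with thapsigargin against control, and 1 and 0 in calcium-free medium. These are 8.33% and 25.0% with thapsigargin, beside 16.4% and 14.8% of all genes, and 8.33% higher in calcium-free medium, beside 3.78%. Eif4g2, also called DAP5 or p97, supports initiation that does not need eIF4E (chromosome 7, 110667192 to 110682237). It had 1526, 1511, 1531 and 1591 CPM with thapsigargin, 1544, 1613, 1596 and 1545 CPM in calcium-free medium and 1109, 1151, 1128 and 1170.1 CPM in control. All 8 treated libraries lay above the 4 control libraries and the treatments overlapped. The rise was 0.43 ± 0.033 log2 (SE, adjusted p = 2.15e-06) with thapsigargin, or 1.35-fold, and 0.47 ± 0.033 log2 (SE, adjusted p = 1.76e-05) in calcium-free medium, or 1.38-fold. Thapsigargin differed from calcium-free medium by -0.033 ± 0.033 log2 (SE, adjusted p = 0.515).

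The main cap-dependent scaffold gene went down. Eif4g1 (chromosome 16, 20491457 to 20511633) had 612, 649, 626 and 699 CPM with thapsigargin, 711, 753, 761 and 848 CPM in calcium-free medium and 745, 728, 720.3 and 814 CPM in control. Its thapsigargin libraries lay below those of both other groups, and it fell by 0.22 ± 0.062 log2 against control (SE, adjusted p = 0.0178) and by 0.25 ± 0.062 log2 against calcium-free medium (adjusted p = 0.0100). The call against control was lost without thapsigargin replicate 1 or 3, with adjusted p up to 0.0548. Eif4g3, the second eIF4G gene, had 217, 236, 236 and 240.0 CPM with thapsigargin, 253, 261, 269.9 and 277 CPM in calcium-free medium and 243, 241, 241 and 264 CPM in control. The thapsigargin libraries lay below all others, lower than in calcium-free medium by 0.19 ± 0.046 log2 (SE, adjusted p = 0.00797) and, against control, at -0.091 ± 0.046 log2 without a call (SE, adjusted p = 0.160, and 0.0118 with the block). In calcium-free medium against control it gave 0.10 ± 0.046 log2 (SE, adjusted p = 0.276), with 0.0201 under the block.

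Eif4a1 had 441, 433, 422 and 589.7 CPM with thapsigargin, 516, 519, 510.0 and 715 CPM in calcium-free medium and 531, 531, 529.7 and 725 CPM in control. Replicate 4 was far above the other libraries of each group, so the groups overlapped, yet each thapsigargin library was below the control library of its number. The difference of -0.30 ± 0.15 log2 was not called on all 12 libraries (SE, adjusted p = 0.154). It was called with the replicate block (adjusted p = 2.59e-08), without replicate 4 (log2 fold change -0.26, adjusted p = 8.41e-07) and without thapsigargin replicate 4 alone (adjusted p = 0.0353). Its paralog Eif4a2 had 249, 251, 253 and 231 CPM with thapsigargin, 275, 251, 243 and 227 CPM in calcium-free medium and 254, 257, 240.1 and 232 CPM in control. These groups overlapped, with a difference of -0.00044 ± 0.058 log2 (SE, adjusted p = 0.997) between thapsigargin and control. Per length, Eif4a2 made up 18.0 ± 2.75% of the pair with thapsigargin, 15.7 ± 2.82% in calcium-free medium and 15.1 ± 2.35% in control (SD, n = 4, no test). Eif4a3, the helicase of the exon junction complex, gave -0.17 ± 0.079 log2 (SE, adjusted p = 0.128, and 0.000117 with the block), and Eif4a3l1, a low gene whose symbol marks it as like Eif4a3, gave -0.20 ± 0.35 log2. Reads of such near relatives can be split between genes, which leaves Eif4a3l1 uncertain.

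Eif4e, the cap-binding subunit, had 154, 150.3, 150.4 and 169 CPM with thapsigargin, 165, 168, 164 and 179.9 CPM in calcium-free medium and 171, 174, 164 and 185 CPM in control. The thapsigargin and control libraries overlapped, each thapsigargin library lay below its same-numbered control, and the fall was 0.15 ± 0.052 log2 (SE, adjusted p = 0.0416). This call was kept in 4 of the 12 fits that left out 1 library and was lost without thapsigargin replicate 1, 2 or 3, calcium-free replicate 2 or 3, or control replicate 1, 2 or 4, with adjusted p up to 0.115. Eif4h fell by 0.18 ± 0.054 log2 (SE, adjusted p = 0.0235), a call lost without thapsigargin replicate 1, 2 or 3 or control replicate 4, up to 0.0698. Eif4b, another eIF4A cofactor, gave -0.061 ± 0.071 log2, and the minor cap-binding genes Eif4e2 and Eif4e3 gave -0.037 ± 0.043 log2 and 0.068 ± 0.074 log2; none of these 3 was called.

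All 4 genes for proteins that bind eIF4E and keep it from eIF4G were called with thapsigargin against control, 2 higher and 2 lower, and 0 in calcium-free medium by edgeR, DESeq2 or limma, also at an unadjusted edgeR p under 0.05. Over all genes 16.4% were called higher and 14.8% lower with thapsigargin, and 3.78% and 1.55% in calcium-free medium. The calls of Eif4ebp1 and Eif4enif1 were lost when single libraries were left out. Eif4ebp2, the 4E-BP that predominates in brain (chromosome 10, 61268276 to 61288448), had 28.2, 28.1, 27.7 and 32.8 CPM with thapsigargin, 37.7, 40.8, 41.3 and 45.4 CPM in calcium-free medium and 41.0, 40.6, 41.3 and 45.9 CPM in control. All thapsigargin libraries lay below all others. The gene fell by 0.53 ± 0.070 log2 (SE, adjusted p = 0.000118), to 0.692 of the control level, and by 0.50 ± 0.070 log2 against calcium-free medium (adjusted p = 0.000287). Eif4ebp1 had 41.6, 40.8, 37.6 and 42.1 CPM with thapsigargin, 41.6, 46.2, 42.7 and 43.4 CPM in calcium-free medium and 46.5, 45.6, 45.6 and 43.2 CPM in control. The thapsigargin libraries lay below control and overlapped calcium-free medium, and the fall against control was 0.16 ± 0.047 log2 (SE, adjusted p = 0.0216). It was lost without thapsigargin replicate 3 or control replicate 1, 2 or 3, with adjusted p up to 0.0688. Per length, Eif4ebp1 was 71.7 ± 1.28% of the pair with Eif4ebp2 with thapsigargin, 65.7 ± 1.72% in calcium-free medium and 66.1 ± 1.98% in control (SD, n = 4, no test).

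Eif4ebp3, a low gene in these cultures, went up. It had 5.59, 5.65, 5.93 and 6.18 CPM with thapsigargin, 4.27, 4.80, 4.51 and 5.10 CPM in calcium-free medium and 4.38, 4.98, 4.76 and 4.77 CPM in control. Its thapsigargin libraries lay above all 8 others, with rises of 0.31 ± 0.079 log2 (SE, adjusted p = 0.0104) against control and 0.32 ± 0.079 log2 (SE, adjusted p = 0.00944) against calcium-free medium. Eif4enif1, which encodes 4E-T, the protein that carries eIF4E into the nucleus and into P-bodies, had 58.5, 59.8, 59.7 and 69.9 CPM with thapsigargin, 52.9, 53.7, 55.3 and 59.4 CPM in calcium-free medium and 52.5, 50.7, 53.5 and 57.9 CPM in control. The thapsigargin libraries lay above control, a rise of 0.21 ± 0.063 log2 (SE, adjusted p = 0.0245), which was lost without thapsigargin replicate 4 or control replicate 1, 2 or 3, with adjusted p up to 0.0769.

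Eif5 gave the widest separation of the groups (chromosome 12, 111504535 to 111513187). Besides activating the GTPase of eIF2 at the start codon, eIF5 competes with eIF2B for eIF2. Its mRNA had 340.2, 340.1, 351 and 358 CPM with thapsigargin, 197, 181, 168 and 159 CPM in calcium-free medium and 239, 234, 227 and 239.8 CPM in control. The 3 groups did not overlap, with all thapsigargin libraries above control and all calcium-free libraries below it. It rose by 0.56 ± 0.057 log2 (SE, adjusted p = 1.58e-05) with thapsigargin, or 1.48-fold, and fell by 0.42 ± 0.057 log2 in calcium-free medium (SE, adjusted p = 0.00156), to 0.750 of control. Thapsigargin exceeded calcium-free medium by 0.98 ± 0.057 log2 (SE, adjusted p = 1.66e-06), or 1.97-fold. The calcium-free call held in every fit that left out 1 library, and was lost with replicate 2 or replicate 3 of all groups left out together (adjusted p = 0.0627 and 0.0545).

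The promoters of Eif5 and Eif4ebp2, the members with the largest rise and the largest fall with thapsigargin, are shown as the sequences at the start of the genes that moved most. The sequences are from RefSeq on GRCm38.p6 and run from 250 bases before to 50 after the start site on the gene's strand; capitals would mark any of the 6 motifs searched, and neither window holds 1. Eif5 is at chr12:111537851-111538150 on the plus strand and Eif4ebp2 at chr10:61452620-61452919 on the minus strand.
Eif5: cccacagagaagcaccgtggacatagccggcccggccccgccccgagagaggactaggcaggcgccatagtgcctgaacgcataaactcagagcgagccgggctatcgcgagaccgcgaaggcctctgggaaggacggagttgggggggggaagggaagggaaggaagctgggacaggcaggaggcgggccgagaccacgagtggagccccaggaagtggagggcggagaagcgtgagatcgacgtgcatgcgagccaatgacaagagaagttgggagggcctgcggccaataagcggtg
Eif4ebp2: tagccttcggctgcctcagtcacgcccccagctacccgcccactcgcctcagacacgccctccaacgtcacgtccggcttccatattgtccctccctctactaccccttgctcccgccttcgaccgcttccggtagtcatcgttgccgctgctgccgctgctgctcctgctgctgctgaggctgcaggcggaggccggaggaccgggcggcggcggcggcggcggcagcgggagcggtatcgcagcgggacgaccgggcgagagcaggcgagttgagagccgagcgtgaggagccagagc

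Of the remaining late-acting factors, Eif5a had 419, 410.5, 405 and 476 CPM with thapsigargin, 451, 456, 456 and 534 CPM in calcium-free medium and 477, 466, 481 and 509 CPM in control. The thapsigargin and control groups overlapped, and the difference of -0.18 ± 0.065 log2 was not called (SE, adjusted p = 0.0586); it was called with the replicate block (adjusted p = 5.65e-05), without replicate 4 (adjusted p = 5.79e-05), and without thapsigargin replicate 4 or calcium-free replicate 4 alone, down to 0.0116. The second eIF5A gene, Eif5a2, had 23.4, 24.2, 24.1 and 25.4 CPM with thapsigargin, 27.0, 28.2, 27.3 and 28.6 CPM in calcium-free medium and 29.1, 26.7, 25.2 and 29.8 CPM in control. It was lower with thapsigargin by 0.19 ± 0.055 log2 than in control (SE, adjusted p = 0.0198), where the groups overlapped, and by 0.19 ± 0.055 log2 than in calcium-free medium (adjusted p = 0.0198), where they did not. The first call was lost without thapsigargin replicate 1 or 3 or control replicate 1 or 4, with adjusted p up to 0.0660, and the second without thapsigargin replicate 1 or 3 or calcium-free replicate 2 or 4, up to 0.0549. Eif5b, the GTPase that joins the large subunit, gave -0.016 ± 0.038 log2, and Eif6, which keeps the large subunit from joining too early, gave -0.18 ± 0.072 log2; neither was called, and Eif6 was called with the block (adjusted p = 0.00112).

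Some members share a promoter element that the rule did not use. RefSeq promoters were found for 41 of the 52 members. The E-box CACGTG lay in a promoter of 10 of the 41 members (24.4%) and of 8.09% of 27025 genes in the table, or 8.91% of its 17492 protein-coding genes. The ETS-type sequence CCGGAAGT lay in 8 members (19.5%) and 4.31% of all genes, and CGCATGCG, the core of an NRF1-type element, in 3 (7.32%) and 2.07%. AAGATGG, a YY1-type element, was in 4 members (9.76%) and 7.28% of all genes. The CRE-type palindrome TGACGTCA and the ATF4-type sequence TGATGNAA were in 0 of the 41 members and in 2.03% and 4.51% of all genes. Both strands were searched and no motif contains another. Member promoters also held more G and C, with a median of 62.5% over 54 windows against 56.3% for protein-coding genes, and several windows of a gene can share bases. A match is a stretch of letters, not a site shown to be bound, and 0 matches says only that these letters are not in these windows.

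Of the 10 members with the E-box, 9 had a negative log2 fold change with thapsigargin against control, with 4 called lower (Eif4e, Eif4g1, Eif4h and Eif5a2) and 1 called higher (Eif3a). Of the 31 matched members without it, 25 were negative, with 6 called lower and 3 higher. Of all 52 members 40 were negative, and of all genes tested 16.4% were called higher and 14.8% lower. The median over all genes was also negative, at -0.047, and their share of negative values was not computed. A part of the E-box in these directions was not tested. Eif3a, the 1 member with the E-box called higher with thapsigargin, holds it at 22 bases after the start site (chr19:60790644-60790943, minus strand), and Eif4g1, called lower, holds it 54 bases before and 15 bases after the start site (chr16:20672477-20672776, plus strand). Both windows are shown, with the E-box in capitals, as 1 gene called in each direction.
Eif3a: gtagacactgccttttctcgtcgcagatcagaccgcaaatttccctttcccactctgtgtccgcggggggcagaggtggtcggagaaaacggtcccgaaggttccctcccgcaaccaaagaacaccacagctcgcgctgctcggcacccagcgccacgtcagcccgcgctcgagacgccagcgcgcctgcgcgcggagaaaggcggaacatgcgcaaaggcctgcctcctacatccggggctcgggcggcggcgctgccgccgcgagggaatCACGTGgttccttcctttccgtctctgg
Eif4g1: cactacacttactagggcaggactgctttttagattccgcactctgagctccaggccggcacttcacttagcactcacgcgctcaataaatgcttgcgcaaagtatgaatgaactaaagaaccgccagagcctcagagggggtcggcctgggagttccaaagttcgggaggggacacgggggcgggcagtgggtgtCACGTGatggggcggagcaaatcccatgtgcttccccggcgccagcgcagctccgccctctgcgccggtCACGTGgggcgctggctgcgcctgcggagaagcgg

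Other genes of translation control were read from the same fits. Of 8 regulators of eIF2 phosphorylation outside the members, 3 were higher (37.5%) and 0 lower with thapsigargin against control, beside 16.4% and 14.8% of all genes. Ppp1r15a, which encodes the stress-induced subunit of the eIF2 phosphatase, was at 38.5 ± 2.24 CPM with thapsigargin, 31.6 ± 3.41 CPM in calcium-free medium and 16.9 ± 0.771 CPM in control (SD, n = 4), and it was the 1 gene of this list called in calcium-free medium. Nck1, an adaptor that binds the phosphatase complex, rose by 0.68 ± 0.073 log2 and Impact, an inhibitor of the kinase GCN2, by 0.26 ± 0.059 log2 with thapsigargin (SE, adjusted p = 2.54e-05 and 0.00524). Among 19 mTOR, MNK and poly(A)-binding regulators, 4 were higher (21.1%) and 3 lower (15.8%) with thapsigargin, near the 16.4% and 14.8% of all genes, and 2 and 2 in calcium-free medium (10.5% each), beside 3.78% and 1.55%. Paip2b, an inhibitor of poly(A)-binding protein, was at 57.8 ± 3.39 CPM with thapsigargin, 45.7 ± 3.44 CPM in calcium-free medium and 32.4 ± 1.43 CPM in control (SD, n = 4), a rise of 0.83 ± 0.061 log2 with thapsigargin and 0.50 ± 0.061 log2 in calcium-free medium (SE). Mknk2, a kinase that phosphorylates eIF4E, was at 48.2 ± 0.806 CPM with thapsigargin, 53.0 ± 1.80 CPM in calcium-free medium and 69.1 ± 1.83 CPM in control (SD, n = 4), a fall of 0.52 ± 0.035 log2 with thapsigargin and 0.38 ± 0.035 log2 in calcium-free medium (SE). The adjusted p of Paip2b and Mknk2 ran from 9.75e-07 to 0.000969. Rps6kb2, an S6 kinase, fell by 0.35 ± 0.075 log2 in calcium-free medium (SE, adjusted p = 0.0190), and Paip2 fell by 0.15 ± 0.032 log2 with thapsigargin (SE, adjusted p = 0.00388).

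Of 13 cytosolic elongation and termination genes, 2 were higher (15.4%) and 4 lower (30.8%) with thapsigargin, and 1 and 1 in calcium-free medium (7.69% each). Over all genes the shares were 16.4% and 14.8% with thapsigargin, the first near that of this list, and 3.78% and 1.55% in calcium-free medium. The ribosome rescue factor Pelo rose by 0.56 ± 0.052 log2 with thapsigargin and 0.23 ± 0.053 log2 in calcium-free medium, the termination factor gene Gspt2 rose by 0.45 ± 0.087 log2 with thapsigargin, and Eef1d fell by 0.26 ± 0.048 log2 (SE). Eef2k, the calcium/calmodulin-dependent kinase of eEF2, fell by 0.28 ± 0.052 log2 in calcium-free medium (SE, adjusted p = 0.00972) and gave 0.031 ± 0.052 log2 with thapsigargin. Of 6 scanning helicases and reinitiation factors, 0 were called in any comparison by edgeR, and 1 had an unadjusted p under 0.05, between the treatments. Both mitochondrial initiation factor genes, Mtif2 and Mtif3, rose with thapsigargin, by 0.31 ± 0.040 log2 and 0.15 ± 0.046 log2 (SE, adjusted p = 9.86e-05 and 0.0289).

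Fold changes moved with exon length. Across genes, which are not independent and were read from the same libraries, Spearman's rho between log2 fold change and exon length was 0.26 for all 17077 genes and 0.34 for the 52 members with thapsigargin against control, 0.23 and 0.23 in calcium-free medium, and 0.13 and 0.26 between the treatments. With that trend removed, thapsigargin against control gave 7 members higher and 9 lower, beside 2547 and 2253 of all 17077 genes. The part of the trend in the smaller falls was not tested further.

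**Figure D4:**
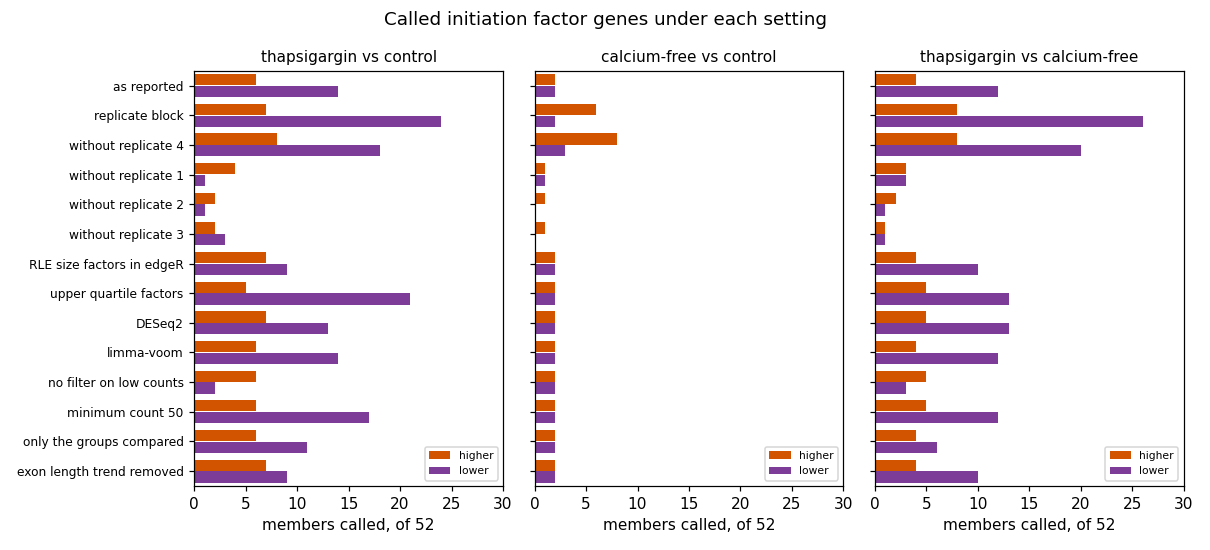
Number of the 52 members called higher and lower (bars from 0) in each comparison under 14 settings of the fit. The counts of lower members with thapsigargin against control run from 1 to 24 across these settings, against 14 as reported. Over all genes the counts lower run from 1085 to 4817 across the same settings, against 2531 as reported.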

How the data were processed

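The authors deposited a table of estimated counts per gene. Per the submitters' processing notes, the build was GRCm39 and the tools included STAR 2.7.2b, featureCounts 1.6.4, cutadapt 1.17 and bcl2fastq 2.20.0.422; the kit was stranded, per the labels' protocols, and the strand setting of the counting is not given in the sources used here. Between 14.2% and 15.9% of values per library are not whole, and these expected counts were rounded before fitting. No column of another sample was used.

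Genes were kept with edgeR's filterByExpr (minimum count 10), scaled by TMM, and fitted with edgeR 4.0.16's robust quasi-likelihood model on 3 group means over all 12 libraries. SE is the log2 fold change over the root of F. DESeq2 1.42.0, limma 3.58.1 (voom), RLE and upper quartile scaling, other filters, the replicate block, left-out libraries and, added after seeing the data, removal of the exon length trend were alternatives. The fits were also run on simulated counts with set fold changes in the thapsigargin libraries. Those counts held no effect of replicate number or exon length, so they do not show how the fits perform where such effects are present. TPM used summed exon lengths. Library totals limit precision for low genes.

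Same-numbered libraries deviated together from their group means, with correlations of 0.159 to 0.392 for numbers 1 to 3 and 0.814 to 0.836 for number 4. Every same-numbered pair was over 0.1, the threshold set for taking the numbers as pairs, but among numbers 1 to 3 different numbers correlated as highly, at 0.238 to 0.412, so the pairing rests on number 4. Printed fold changes, SEs and p-values are from the fit without the block, unless the block is named. Members, lists and motifs were chosen with earlier results of these data known. All members may be named; values in every library are given for the 6 called members with the smallest p in each direction and comparison and for 12 fixed genes, and up to 3 called genes per pathway list. A comparison of protein sequences was planned and not run.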

Additional observations from a re-analysis of the deposited data

Results flagged for a closer look

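In 31 of the 156 sets of 4 libraries (52 members in 3 groups), 1 library lay so far from the other 3 that the gap passed Dixon's 95% critical value, where chance gives about 1 in 20. Replicate 4 was that library in 29 of them. The 52 sets of a group come from the same 4 libraries and are not independent, so the count cannot be read against that rate. The rate over all genes was not computed. Replicate 4 of the thapsigargin group had Eif1ax at 226 CPM (others 208 to 211), Eif2ak2 at 60.8 CPM (others 69.9 to 71.7), Eif2b4 at 37.3 CPM (others 30.9 to 31.5) and Eif3a at 402 CPM (others 345 to 354). The same thapsigargin library also had Eif3d at 176 CPM (others 148 to 152), Eif3l at 164 CPM (others 140.1 to 144), Eif4a1 at 590 CPM (others 422 to 441) and Eif4a3 at 134 CPM (others 113 to 116). The same thapsigargin library also had Eif4a3l1 at 2.21 CPM (others 0.876 to 0.95), Eif4ebp2 at 32.8 CPM (others 27.7 to 28.2), Eif4enif1 at 69.9 CPM (others 58.5 to 59.8) and Eif4h at 332 CPM (others 297 to 302). Replicate 4 of the calcium-free group had Eif2ak1 at 55.9 CPM (others 48.6 to 49.1), Eif2b5 at 80.5 CPM (others 70.8 to 72.4), Eif3d at 179 CPM (others 151 to 156) and Eif3f at 166 CPM (others 144 to 145). The same calcium-free library also had Eif3g at 94.6 CPM (others 79.7 to 81.0), Eif3h at 188 CPM (others 169 to 172), Eif3k at 91.2 CPM (others 76.4 to 77.7) and Eif4a1 at 715 CPM (others 510.0 to 519). The same calcium-free library also had Eif4a3 at 151 CPM (others 120.1 to 125) and Eif5a at 534 CPM (others 451 to 456). Replicate 4 of the control group had Eif2ak4 at 28.1 CPM (others 23.5 to 23.6), Eif3l at 174 CPM (others 156 to 158), Eif4a1 at 725 CPM (others 529.7 to 531) and Eif4a3 at 146 CPM (others 129 to 131). The same control library also had Eif4b at 264 CPM (others 226 to 232), Eif4ebp2 at 45.9 CPM (others 40.6 to 41.3) and Eif4g3 at 264 CPM (others 241 to 243). Outside replicate 4, replicate 1 of the calcium-free group had Eif3e at 139 CPM (others 143 to 144). Outside replicate 4, replicate 3 of the control group had Eif4e3 at 5.28 CPM (others 5.00 to 5.01). Replicate 4 was also the library with Xist and without Eif2s3y in each group, and the part of that difference in these values was not tested.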

How the results depend on the processing

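Of the called members, 3 with thapsigargin against control (Eif4ebp2, Eif4g2 and Eif5), 1 in calcium-free medium against control (Eif4g2) and 2 between the treatments (Eif4ebp2 and Eif5) were called under each of the 26 alternatives. Eif1b reversed with thapsigargin against control, from -0.02 to 0.12 with the exon length trend removed and to 0.12 with that and the replicate block (adjusted p = 0.00972 and 0.00114). With the replicate block, where the pairing rests on number 4, thapsigargin against control had 24 members lower, beside 28.2% of all genes. Calcium-free medium had 6 higher, beside 10.4%, and thapsigargin against calcium-free medium 8 higher and 26 lower, beside 22.4% and 26.9%. The block ended none of the calls and added 11, 4 and 18 in the 3 comparisons. Members lower with thapsigargin than control numbered 9 with RLE factors, 2 with no filter on low counts and 9 with the exon length trend removed. Over all genes these fits gave 2204 of 17077, 1456 of 29089 and 2253 of 17077 lower. Thapsigargin against calcium-free medium had 3 lower with no filter and 6 with only the groups compared, beside 1247 of 29089 and 1577 of 16735 genes. Exon length removal with the block gave 8 higher and 4 lower in calcium-free medium, and 8 higher and 26 lower between the treatments. Of all 17077 genes, it gave 1706 higher and 1195 lower, and 3606 higher and 4614 lower. The members' median with thapsigargin against control moved to -0.0936 with upper quartile factors and -0.0300 with no filter, and in calcium-free medium to -0.0256, and to 0.0250 and 0.0245 with the length trend removed without and with the block. Leaving out libraries, singly or 1 number in every group, gave thapsigargin against control 2 to 8 higher, 1 to 22 lower and medians of -0.107 to -0.0350. Calcium-free medium against control gave 1 to 8 higher, 0 to 3 lower (0 without replicate 2 or 3, each with 2 at an unadjusted p under 0.05 by edgeR, the tool refitted there) and medians of -0.0468 to 0.0373. Between the treatments there were 1 to 8 higher, 1 to 20 lower and medians of -0.115 to -0.0579. Over all genes, with 17004 to 17271 tested, thapsigargin against control gave 1886 to 4147 higher and 1085 to 3598 lower in these fits. Calcium-free medium gave 50 to 1782 higher and 9 to 877 lower, and the treatments against each other 1363 to 3684 higher and 784 to 3293 lower. The causes were not tested; fewer libraries also leave less to estimate the spread from. Counting error is relatively largest for the members with the fewest counts, such as Eif4a3l1 with 674 counts in total, and its part in their spread was not tested.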
